A study of Homo sapiens with 3 samples.

Results

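HEY1, HEY2 and HEYL encode the HEY family of basic helix-loop-helix repressors, and the peaks of the chromatin proteins RBPJ and L3MBTL3 around these 3 genes were examined in MDA-MB-231 cells, an established human breast cancer cell line. A peak belonged to the family if its summit, the base of highest signal, lay within 100 kb of a transcription start site (TSS) of a protein-coding transcript of one of the genes. This rule took 3 of 2926 RBPJ peaks and 3 of 444 L3MBTL3 peaks, 6 of 3370 in all. Chromatin immunoprecipitation followed by sequencing (ChIP-seq) had been done with an antibody to RBPJ (1 library) and an antibody to L3MBTL3 (1 library), and the library of input DNA is not analysed here. No treatment or genetic change of the cells is named, each antibody has a single library, and the values below therefore carry no replicate error and no test between conditions. The line is a single tumour line, and peak lists hold no expression values against which its identity could be checked.

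HEY genes are classical targets of Notch. When a Notch receptor is cleaved, its intracellular domain enters the nucleus and joins RBPJ, the pathway's DNA-binding factor (CBF1 in the series title), which then activates HES and HEY genes. Without that domain RBPJ binds corepressors at the same genes, and the series asks where it lies together with L3MBTL3, an MBT-domain protein that reads methylated lysines and that the series title links to repression by the histone demethylase KDM1A. The HEY proteins themselves bind DNA as dimers, repress transcription, and are best known from heart and blood vessel development, where HEY2 marks arterial endothelium and ventricular muscle in mice.

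The 3 family members had 3 different patterns. At HEY2 the promoter carried a strong peak of RBPJ and a strong peak of L3MBTL3 over the same stretch. At HEY1 the promoter carried 2 L3MBTL3 peaks, while the 2 RBPJ peaks lay 16.3 and 16.5 kb upstream of the nearest TSS. At HEYL there was no peak of either protein within 100 kb. For RBPJ, 2 of the 3 genes thus had a summit within 100 kb, against 31.0% of 19756 protein-coding genes. For L3MBTL3, 2 of the 3 had one, against 4.53%. Within 1 kb of a TSS, 1 of the 3 genes (HEY2) had an RBPJ summit, against 8.9% of all genes, and 2 of the 3 (HEY1 and HEY2) an L3MBTL3 summit, against 1.37%. An RBPJ peak that overlapped an L3MBTL3 peak had its summit there at 1 of the 3 (HEY2), against 0.516%. Genes were not matched on promoter class or activity for these shares, and with 3 members chosen with earlier results known they are descriptions.

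The sequences that RBPJ recognises are shown first because all 3 promoters hold them, bound or not. High-affinity RBPJ sites were sought as the words CGTGGGAA and TGTGGGAA on either strand. Each promoter held 2 such sites within 1 kb of its canonical TSS, the start of the transcript that the annotation marks as canonical. Of all protein-coding genes, 4.94% had 2 or more such sites within 1 kb of any of their TSS. The stretch of the HEY2 promoter between its sites (hg19, chr6:126070565-126070780, plus strand) and the HEYL promoter from its nearer site to the base before the TSS (hg19, chr1:40105316-40105493, minus strand) are printed 5′ to 3′ along the gene. Capitals mark high-affinity sites, and TTCCCACG is CGTGGGAA read on the opposite strand.
HEY2 promoter: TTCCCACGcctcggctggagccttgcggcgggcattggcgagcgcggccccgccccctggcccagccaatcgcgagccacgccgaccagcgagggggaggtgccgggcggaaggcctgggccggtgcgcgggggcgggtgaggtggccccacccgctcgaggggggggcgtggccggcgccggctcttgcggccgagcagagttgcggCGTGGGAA
HEYL promoter: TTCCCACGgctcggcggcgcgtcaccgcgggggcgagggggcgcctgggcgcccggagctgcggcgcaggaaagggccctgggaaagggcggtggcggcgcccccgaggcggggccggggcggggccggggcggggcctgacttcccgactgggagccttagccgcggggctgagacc
The HEY2 stretch begins and ends with a site, and the HEYL stretch holds one at its upstream end.

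The 4 sites of HEY2 and HEYL are set beside each other with 11 bases to each side, again along the gene, to show how their surroundings compare. The lines lie at chr6:126070554-126070583 and chr6:126070762-126070791 for HEY2 and at chr1:40105475-40105504 and chr1:40106201-40106230 for HEYL (hg19).
HEY2 upstream site: ccgcggccgcgTTCCCACGcctcggctgga
HEY2 site at the TSS: cagagttgcggCGTGGGAAagagccgctag
HEYL nearer site: cgcctagggccTTCCCACGgctcggcggcg
HEYL farther site: aatctgagaacTTCCCACAagtccccctaa
The HEY2 upstream site and the HEYL nearer site shared 11 of the 22 flanking bases, 7 of them among the 11 bases after the site. Among the other pairs of sites with the same orientation, equal bases numbered 5 to 10 of 22. The stretch that the HEY2 and HEYL sites share, TTCCCACGNCTCGGC, was sought on either strand after these sequences had been seen. It lay within 1 kb of a TSS of 3 protein-coding genes (0.0152% of 19756), namely HEY2, HEYL and ZNF48, and a match is a description of the letters, not a shown binding site.

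The sites of HEY1 and HEY2 were arranged alike. In each of these promoters the upstream site pointed away from the gene (antisense) and the site near the TSS pointed along it (sense), so the sites stood tail to tail. At HEY2 the upstream site ended 206 bp upstream of the canonical TSS and the sense site covered the TSS itself, with 200 bases between them. At HEY1, on the minus strand of chromosome 8, the antisense site (80680476 to 80680483) lay 474 bp and the sense site (80680046 to 80680053) 44 bp upstream of the canonical TSS at 80680002, with 422 bases between them. At HEYL both sites were antisense, 171 and 897 bp upstream of its single TSS at 40105315, with 718 bases between them.

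The arrangement for which Notch targets are best known is the paired site, where RBPJ words face each other head to head a short distance apart and 2 Notch complexes can bind as a dimer. No member had it: with 15 to 17 bases between the words, and with A, G or T allowed as the fifth base of either word, 0 head-to-head pairs lay within 100 kb of any TSS of HEY1, HEY2 or HEYL. Lacking it is the usual case: such a pair lay within 100 kb of 0.612% of all protein-coding genes and within 1 kb of 0.111%. Allowing those bases added no site within 1 kb of the canonical TSS of any of the 3 genes. It raised the number over the whole neighbourhoods to 53 at HEY1, 46 at HEY2 and 37 at HEYL.

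**Figure D1:**
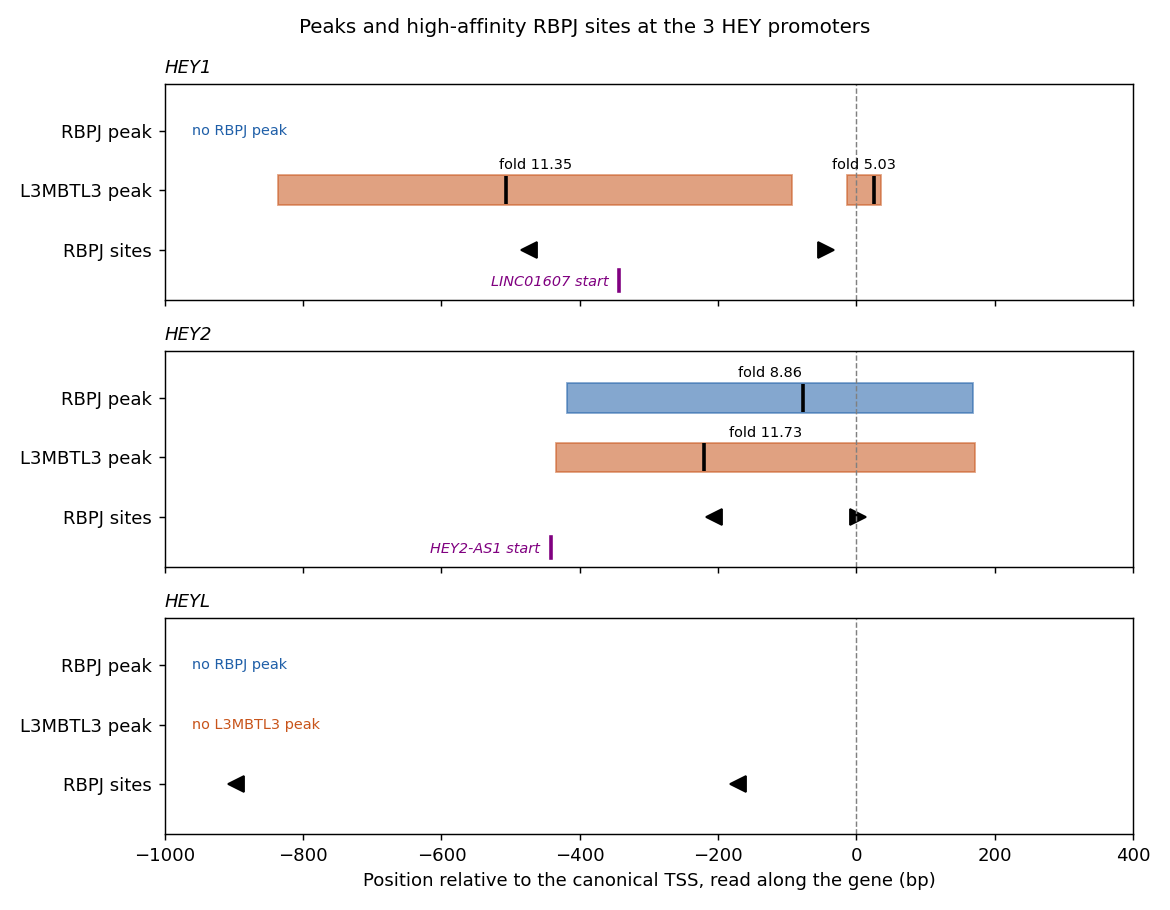
Deposited peaks (bars, with the summit as a black tick and the deposited fold enrichment above), high-affinity RBPJ sites (arrowheads pointing along the site's strand) and starts of divergent lncRNAs (purple) at HEY1, HEY2 and HEYL, by position in bp from the canonical TSS (dashed line), read along each gene. HEY2 has an RBPJ and an L3MBTL3 bar over both of its sites, HEY1 only L3MBTL3 bars, and HEYL sites without a bar.

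HEY2 was the member at which an RBPJ peak and an L3MBTL3 peak overlapped. Separate libraries cannot show whether both proteins lay on the same DNA molecule. The RBPJ peak (chromosome 6, 126070359 to 126070947, hg19) had a fold enrichment of 8.86 over the peak caller's local background and a -log10 q of 12.1, rank 45 of 2926 by fold. The L3MBTL3 peak (126070343 to 126070949) had a fold of 11.7 and a -log10 q of 16.7, rank 3 of 444. They were wide for their lists, 589 and 607 bp against list medians of 94 and 86 bp, and the L3MBTL3 peak contained all of the RBPJ peak and extended a little beyond it on both sides. Of all peaks, 8 in the RBPJ list (0.273%) and 11 in the L3MBTL3 list (2.48%) were 500 bp or wider.

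Within that shared stretch the summits were apart. The RBPJ summit lay 78 bp upstream of the canonical HEY2 TSS, 73 bp from the sense site at the TSS and 128 bp from the antisense site. The L3MBTL3 summit lay 220 bp upstream of that TSS, 7 bp from the antisense site and 215 bp from the sense site. The RBPJ summit thus fell between the sites, nearer the TSS, and the L3MBTL3 summit beside the upstream site. The distance between the summits was 142 bp, and 20 of the 133 overlapping pairs of the lists (15%) had summits at least that far apart, with a median of 53 bp. How precisely a summit places the protein within such a wide peak cannot be told from the lists.

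At HEY1 one of the L3MBTL3 peaks stood next to that of HEY2 by fold, and the other was weak. The larger peak (chromosome 8, 80680095 to 80680838, 744 bp) had a fold of 11.3 and a -log10 q of 15.3, rank 4 of 444, a little below the HEY2 peak on both measures. Its summit lay 416 bp upstream of the nearest TSS of the gene (80680092) and 506 bp upstream of the canonical one, 25 bp from the antisense RBPJ site. That summit was closer to an annotated start of the lncRNA gene LINC01607 (80680377), which runs the other way: it lay 131 bp past that start, in an intron of the lncRNA gene. The second, small peak (80679966 to 80680015, 50 bp) had a fold of 5.03, below the list median of 5.57, and a -log10 q of 1.55, a q of 0.028 that lies near the end of the list, where the largest q was 0.0498. It covered the canonical TSS, with its summit 26 bp downstream in an exon, in the UTR. The sense site of the promoter fell in neither peak: it lay between them, 31 bp from the smaller one, and its closest L3MBTL3 summit was 70 bp away. Over the whole L3MBTL3 list, 3.15% of summits had such a site at most 25 bp away and 9.23% at most 75 bp away. In the RBPJ list these shares were 4.1% and 7.72%. The limit of 25 bp equals the distance at the larger HEY1 peak, so that peak and the HEY2 peak fall within it by construction. The limit of 75 bp lies just above the distances at the small HEY1 peak (70 bp) and at the RBPJ peak of HEY2 (73 bp).

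**Figure D2:**
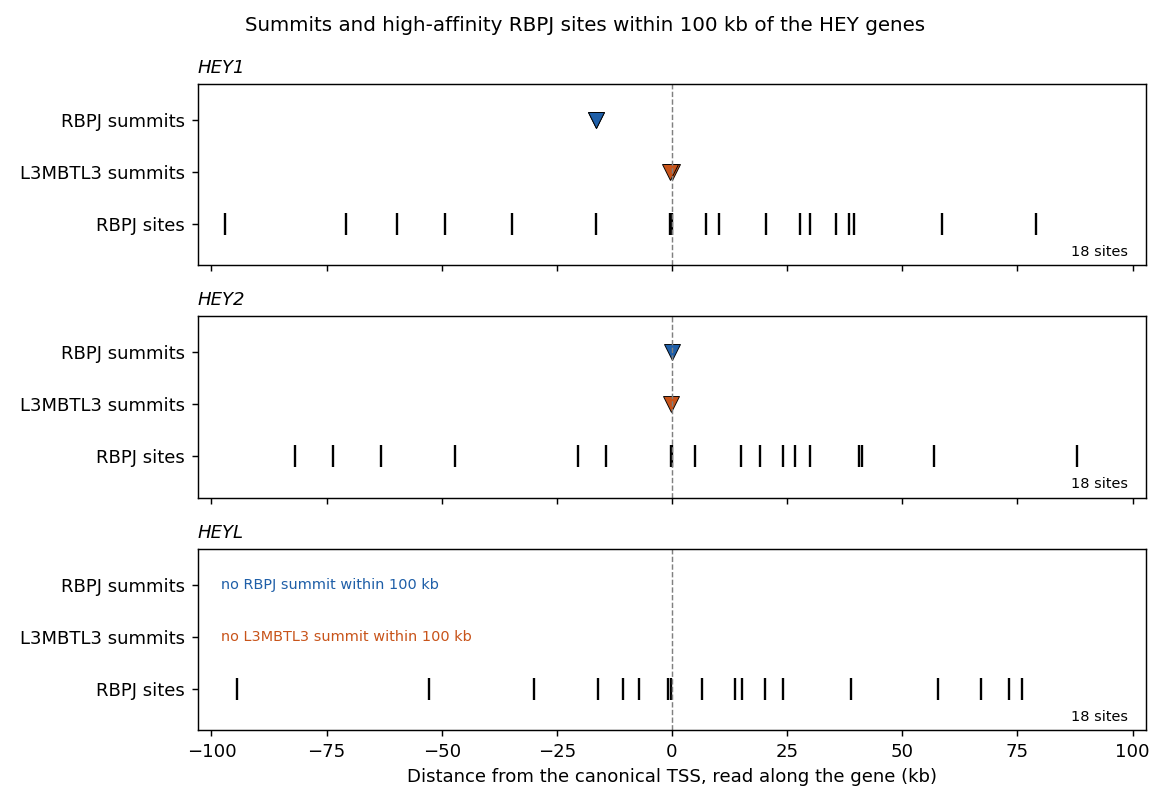
Summits of RBPJ peaks (blue triangles), summits of L3MBTL3 peaks (orange triangles) and high-affinity RBPJ sites (black ticks) by distance in kb from the canonical TSS of HEY1, HEY2 and HEYL, read along each gene. Each neighbourhood holds 18 sites, and at HEY1 the 2 RBPJ summits, drawn over each other at this scale, stand about 16 kb upstream of the L3MBTL3 summits.

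The HEY1 locus did have RBPJ peaks in the list, but they lay upstream of the promoter. The first RBPJ peak (80696301 to 80696447, 147 bp) had a fold of 5.33 and a -log10 q of 3.68. Its summit lay 4 bp from a high-affinity site on the minus strand (80696436 to 80696443). The second peak (80696533 to 80696590, 58 bp), 85 bases further upstream, had a fold of 5.66 and a -log10 q of 3.25, and that site was 110 bp from its summit. The folds were above the list median of 5.08, with 58.8% and 71.5% of RBPJ peaks lower, whereas 98.5% were lower than the HEY2 peak. By -log10 q, 52.4% and 43.7% of RBPJ peaks were lower, and the second peak lay below the list median of 3.51. The summits lay in introns of the lncRNA genes LINC01607 and ENSG00000249328, 558 and 679 bp past an internal start of LINC01607, and HEY1 was the nearest protein-coding gene. The 201-base windows around these summits share 80 bases, and in that shared part lay 1 E-box (CACGTG), a word that bHLH factors bind. It was found in 6.87% of windows around RBPJ summits and in 2.93% around L3MBTL3 summits, and in 0 of the other 4 windows of the family, 1 of RBPJ and 3 of L3MBTL3.

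Neither RBPJ summit at HEY1 was within 10 kb of a TSS, and HEY1 thus counted among the 0.734% of protein-coding genes with an L3MBTL3 summit and without an RBPJ summit within 10 kb. Distance from RBPJ was common in the L3MBTL3 list: 213 of 444 peaks (48.0%) had no RBPJ summit within 10 kb of their own. The larger HEY1 peak had the highest fold of those 213. That peak held recognition sequence, as did other peaks without RBPJ nearby. Of 57 L3MBTL3 peaks with 1 high-affinity site, 20 (35.1%) had no RBPJ summit within 10 kb, the small HEY1 peak among them. Of 385 peaks without a site, 192 (49.9%) had none. Every 50-base word of the 2001 bp around the canonical TSS occurred exactly once in the genome at HEY1, HEY2 and HEYL, and the same held for all 6 peaks, so reads of that length could be placed there by exact match. A signal below the caller's cutoff leaves no entry in the list, where the weakest RBPJ peak had a q of 0.0487. Why RBPJ has no peak at the HEY1 promoter was not tested, and RBPJ binding there cannot be called absent from a list of peaks.

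Within the L3MBTL3 list, the larger HEY1 peak and the HEY2 peak had the most sites in or within 100 bp, without allowing for peak width. Of its 444 peaks, 2 held 2 or more high-affinity sites in the peak or within 100 bp, the larger peak of HEY1 and the peak of HEY2. The median fold was 5.45 over 385 peaks without a site and 6.42 over 57 with 1 site. Peak width was not matched between these groups, and a wider peak offers more sequence to search. The larger HEY1 peak and the HEY2 peak were also among the 11 widest, so more sequence was searched in them. In windows of equal length, 500 bp to each side of the summit, 12 L3MBTL3 peaks (2.7%) had 2 or more sites, near 10 genes, 2 of them HEY1 and HEY2 and the others ID1, KAZN, MSRB3, MTRR, PPP1R26, SPEN, TPPP and ZNF248. In the RBPJ list 14 of 2926 peaks (0.478%) held 2 or more sites in or within 100 bp, that of HEY2 among them, and in the windows of equal length 37 (1.26%) did.

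**Figure D3:**
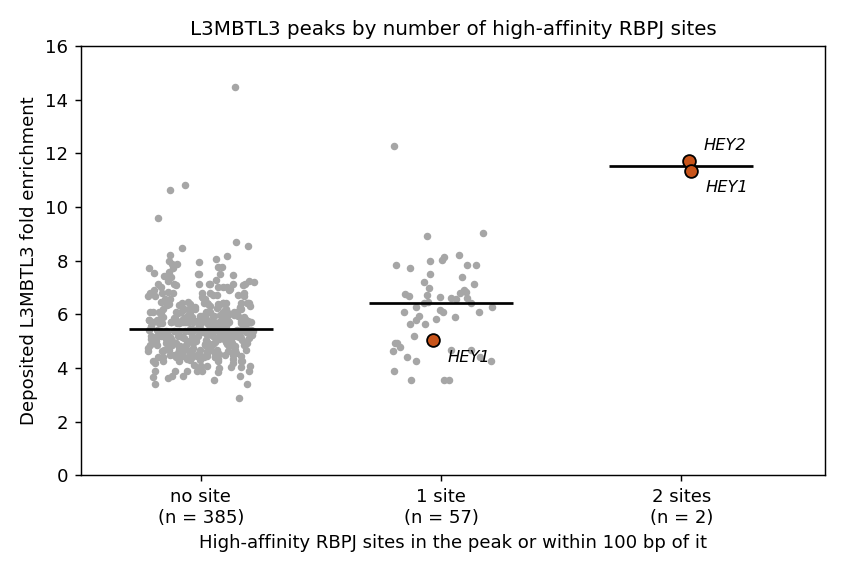
Deposited fold enrichment of each L3MBTL3 peak (points) by the number of high-affinity RBPJ sites in the peak or within 100 bp of it, with HEY peaks in orange and black lines for medians. Peak width was not matched between the groups. The 2 peaks with 2 sites are those of HEY2 (fold 11.7) and HEY1 (11.3), and the small HEY1 peak (5.03) stands among the 57 peaks with 1 site.

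**Figure D4:**
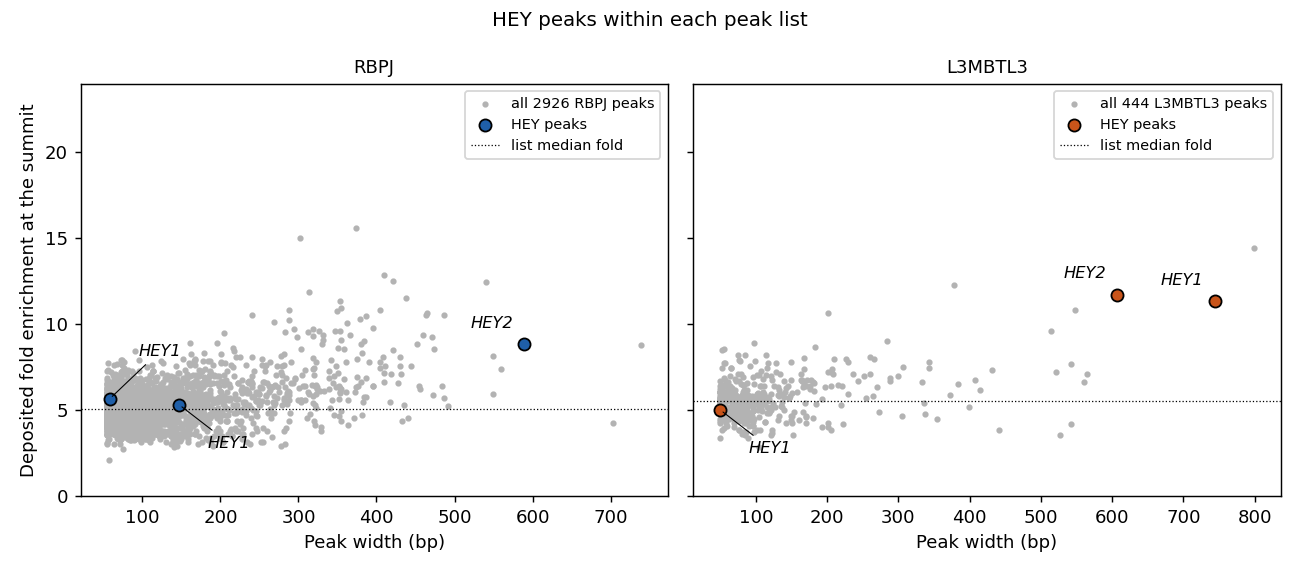
Deposited fold enrichment against peak width in bp for all peaks of the RBPJ list (left) and the L3MBTL3 list (right), with HEY peaks coloured and the median fold dotted. The HEY2 peaks and the larger HEY1 peak of L3MBTL3 stand at the wide, high end of their lists, and the other 3 HEY1 peaks lie lower, at folds of 5.03 to 5.66 and widths of 50 to 147 bp; folds are comparable only within a list.

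HEYL differed from its relatives in peaks, not in the presence of sites. Its neighbourhood of 100 kb to each side held 18 high-affinity sites, 2 of them in the promoter, the same numbers as at HEY1 (18 and 2) and HEY2 (18 and 2). At HEY1 3 of the 18 sites lay in or within 100 bp of a peak, at HEY2 2, and at HEYL 0. The nearest summits to HEYL were 262.0 kb away for RBPJ (fold 6.30) and 261.8 kb for L3MBTL3 (4.74), both nearest to MYCL, a gene of the MYC family. A locus without peaks is the usual case: 67.5% of protein-coding genes had neither summit within 100 kb. Of the 975 genes with 2 or more high-affinity sites within 1 kb, 85.0% had neither summit within 1 kb, 13.2% had an RBPJ summit and 4.31% an L3MBTL3 summit. Of the 14843 genes without such a site, 7.9% had an RBPJ summit and 1.08% an L3MBTL3 summit. Sites and summits were sought around every TSS of a gene, and genes were not matched on number of TSS or base composition.

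The peaks that chose the family lay well inside the limit of 100 kb. The farthest member summit was 16461 bp from a TSS, and the nearest summit outside the limit was that of L3MBTL3 near MYCL. The HEY genes stood in very different surroundings. Within 5 Mb of the canonical TSS, HEY1 had 5, HEY2 1 and HEYL 19 RBPJ peaks, against a median of 11 over all protein-coding genes. The corresponding numbers of L3MBTL3 peaks were 2 at HEY1, 1 at HEY2 and 8 at HEYL, against a median of 1. The next RBPJ summits to the HEY2 peak were 12.1 Mb and 18.5 Mb away on either side. RBPJ peaks were unevenly spread over the genome, from 1.13 to 39.7 per 10 Mb over 23 chromosomes (median 9.09). On chromosome 6 they numbered 288 in the first 60 Mb, a border chosen after the data had been seen, and 39 past it, where HEY2 lies (48.0 and 3.51 per 10 Mb). L3MBTL3 peaks there numbered 45 and 12. The few peaks around HEY2 thus lay in a longer stretch with few peaks. These counts take no account of DNA copy number in the line, and what underlies the uneven spread was not tested. HEYL, without a peak of its own, had the most peaks around it.

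The promoters of HEY1 and HEY2 shared a layout that HEYL lacked. A lncRNA gene on the opposite strand started 343 bp upstream of the canonical TSS of HEY1 (LINC01607) and 442 bp upstream of that of HEY2 (HEY2-AS1). The antisense RBPJ site of HEY2 and the sense site of HEY1 lay between the divergent starts. The antisense site of HEY1 lay past the LINC01607 start, in an intron of that gene. This layout is read from the canonical TSS. HEY2 has another protein-coding TSS further upstream, at 126068810, and its antisense site and peak summits lay in an intron of HEY2. The sense site of HEY1 lay in an exon of HEY1, in the UTR. At HEYL the nearest lncRNA start on the opposite strand was 140326 bp upstream. Of all protein-coding genes, 13.5% had a lncRNA start on the other strand within 1 kb upstream of a TSS. Of those 15.1% had an RBPJ summit within 1 kb, against 7.93% of genes without one, and 2.74% had an L3MBTL3 summit, against 1.16%. For these shares too, genes were not matched on number of TSS or base composition.

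The share of G and C was alike across the family, while the CpG ratio was lowest at HEYL. In the 1 kb around the canonical TSS, G and C made up 71.4% of bases at HEY1, 71.4% at HEY2 and 69.3% at HEYL, against a median of 59.0% over protein-coding TSS. The ratio of observed to expected CpG was 0.893 at HEY1, 0.945 at HEY2 and 0.762 at HEYL, against a median of 0.666. The printed stretch of HEY2 held 2 CCAAT boxes (CCAAT) and 1 GC box (GGGGCGGGG), and the HEYL stretch 0 and 2, counted on either strand. The stretches were 216 and 178 bases long, so the counts are not directly comparable. In 201-base windows, CCAAT was found around 19.5% of all RBPJ summits and 12.2% of all L3MBTL3 summits. The GC box was found around 21.8% and 15.1%. None of the 201-base windows around the 6 family summits held the AP-1 words TGACTCA and TGAGTCA, the TEAD word GGAATG or the RUNX word TGTGGTT. These words were found in 11.2%, 13.7% and 3.38% of windows over all RBPJ summits and in 2.03%, 2.7% and 1.35% over all L3MBTL3 summits.

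Few genes matched HEY1 or HEY2 once sites in or beside the peaks were counted. By kind of peak alone, 145 protein-coding genes, HEY1 included, had L3MBTL3 without RBPJ within 10 kb. Overlapping peaks within 10 kb were found at 119, HEY2 included. The count of sites depends on peak width, and the HEY2 peaks and the larger HEY1 peak were wide. Likeness was measured over the 2 libraries as the summed difference in percentile of the highest fold within 10 kb, among genes with the same kinds of peak and the same class (0, 1, or 2 or more) of high-affinity sites in or within 100 bp of their peaks within 10 kb. Sites elsewhere in a promoter were not counted for this. For HEY1, 1 other gene qualified, KAZN, with L3MBTL3 peaks of up to 7.13 and no RBPJ summit within 10 kb (difference 10.8 percentile points). For HEY2, 2 qualified: ISG15 (RBPJ fold 15.6, L3MBTL3 fold 6.67, difference 19.5, with peaks that lie at the neighbouring HES4) and TPPP (8.01 and 6.42, difference 24.5). HEYL had no peak within 10 kb and was not matched.

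Among 10 relatives of the HEY genes in the bHLH-Orange class (HES1 to HES7, HELT, BHLHE40 and BHLHE41), 4 had an RBPJ summit within 10 kb of a TSS, against 11.3% of all protein-coding genes. An L3MBTL3 summit lay within 10 kb of 2, HES4 and HES5, against 1.58%, and overlapping peaks within 10 kb of 1, HES4, against 0.602%. HES5, another Notch target, singled out after its values were seen, had an L3MBTL3 summit 3201 bp from a TSS, its nearest RBPJ summit 15937 bp away, and 2 high-affinity sites within 1 kb of a TSS. That L3MBTL3 summit was closer to a TSS of PANK4 than to HES5. It was the 1 relative of the 10 with 2 or more such sites, which all 3 HEY genes had.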

How the data were processed

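Per the labels' protocols, single-end reads of 50 cycles, 30 to 40 M (megareads) aligned per sample, had their adaptors removed by Trimmomatic before alignment to hg19 by BWA 0.7.15. MACS2 is named in the submitters' processing notes, while its version, cutoff and control are not given. The deposited lists hold each peak's position and summit, its fold enrichment (a ratio over local background), and its p and q as -log10 values. The deposited score is the -log10 q times 10, truncated. Each list comes from 1 library, and read counts behind a peak are unknown.

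Positions are 1-based in hg19. Genes come from GENCODE 44 lifted to GRCh37, sequence from GRCh37, on chromosomes 1 to 22 and X. TSS are those of protein-coding transcripts. Peaks overlapped if they shared 1 bp. Words were matched exactly, and the uniqueness of 50-base words was counted on both strands. Word and distance searches were tested on simulated data. Python 3.11.15, pysam 0.24.0, pandas 2.3.3 and numba 0.67.0 were used. With 1 library per antibody no p is given. The members, lists and words were chosen with earlier results of these data known. Named genes are the HEY genes, the genes nearest their peaks, and up to 3 most alike. Peaks with 2 or more sites, and the genes near them, were chosen after seeing the data. The HEY1 sequences are not reported here.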

Additional observations from a re-analysis of the deposited data

How the results depend on the processing

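The counts rest on 6 peaks of 1 library per antibody, so a change of 1 or 2 peaks moves them, and a change of fold with repeated experiments is unknown. Of the RBPJ peaks, 1 remained of 3 within 10 kb of a TSS and 1 of 3 once weak peaks (-log10 q below 5) were left out. In both cases this was the HEY2 peak. The other RBPJ settings (50 kb, a fold of at least the list median, TSS of all transcripts, the HEY gene as nearest gene) gave 3. The L3MBTL3 peaks numbered 2 or 3 under all settings, the small HEY1 peak being the one lost. The overlapping pair at HEY2 was counted under each rule except summits within 100 bp of each other, which gave 0. High-affinity sites in or beside peaks numbered 5, and 4 or 5 under the 4 alternatives. No paired analysis was possible because each antibody had 1 library and no result comes from a test.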
